A study of Arabidopsis thaliana with 6 samples.

Results

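The genes described here are 10 gibberellin oxidases of Arabidopsis thaliana, read on 6 arrays of shoot apical meristem and juvenile leaves. They are GA20OX1 (AT4G25420), GA20OX2 (AT5G51810), GA20OX3 (AT5G07200), GA3OX1 (AT1G15550), GA3OX2 (AT1G80340), GA2OX1 (AT1G78440), GA2OX2 (AT1G30040), GA2OX4 (AT1G47990), GA2OX6 (AT1G02400) and GA2OX8 (AT4G21200). They were chosen by name, and their probes were found through the RefSeq transcript that the array file gives for each probe. All 10 genes had a probe, out of 25323 genes with a named probe, and 12 probes read them: GA3OX1 and GA2OX2 had 2 probes each and the other 8 genes had 1.

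Gibberellins are plant hormones that promote stem elongation, leaf growth, germination and flowering, and the oxidases act at the end of their pathway. GA20-oxidases and then GA3-oxidases carry out the last steps towards the bioactive hormone, and GA2-oxidases inactivate the hormone or its precursors. In the shoot apical meristem the hormone is kept low, KNOX homeodomain proteins repress GA20OX1 there, and bioactive gibberellin lowers the expression of GA20-oxidase and GA3-oxidase genes while it raises that of GA2-oxidase genes.

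Each array held labelled cDNA from the pooled material of 30 plants, 21 days old, and each group had 1 array. The plants of 5 groups carried XVE, a chimeric transcription activator that needs 17-β-estradiol to turn on its target, together with the construct AMY3C-EY; what that construct encodes is not given in the labels. They were sampled untreated (0 h), after 20 µM estradiol had been brushed onto the meristems (1 h, 3 h or 6 h later) and 6 h after the solvent DMSO. The sixth group carried XVE alone and was taken at 6 h after estradiol. All 6 groups thus carried XVE, and the promoter that drives it and the number of lines are not given in the labels. No wild type, no DMSO or XVE-alone sample at 1 h or 3 h and no untreated sample at a later hour than 0 h was analysed here. At 1 h and 3 h the construct, estradiol, its application by brush and the hour of harvest therefore cannot be told apart. One slide carried the 4 arrays of the time course and a second slide carried the arrays for DMSO and XVE, so setting one against the other also sets slide against slide.

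Levels are on the log2 scale with each array's own 75th percentile as 0, and that percentile lay between 341.6 (XVE) and 1435 (3 h) units of processed intensity. Between 67.9% and 77.5% of the spots of an array were well above background by the scanner software's flag, and the lowest level well above background ran from -5.74 (3 h) to -4.09 (XVE). Of the shoot meristem markers, STM, CLV3 and KNAT1 were well above background on all 6 arrays and WUS on none. The summed level of the 4 leaf markers ran from 5.97 at 6 h to 7.91 on the XVE array. Of the 3 root markers, PYK10 and COBL9 were well above background on all 6 arrays and EXPA7 on none. Of the 3 flower markers AP1 was on all 6, AG on 4 and AP3 on 1. Fewer cells of a type and less RNA per cell cannot be told apart in such samples.

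Of the 10 oxidase genes, 4 were well above background on all 6 arrays: GA20OX1, GA3OX1, GA2OX2 and GA2OX6. GA20OX3 was so on the 1 h and 3 h arrays and GA2OX4 on the 3 h array alone. GA20OX2, GA3OX2, GA2OX1 and GA2OX8 were not well above background on any array. Each subfamily therefore had at least 1 member read throughout, namely 1 of 3 GA20-oxidases, 1 of 2 GA3-oxidases and 2 of 5 GA2-oxidases. Of all 25323 genes with a named probe, 17996 were well above background on all 6 arrays. The counts of oxidases below cover these 4 genes, not the family, and a gene dim on one of 2 arrays is given at most a bound (at least N-fold).

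**Figure D1:**
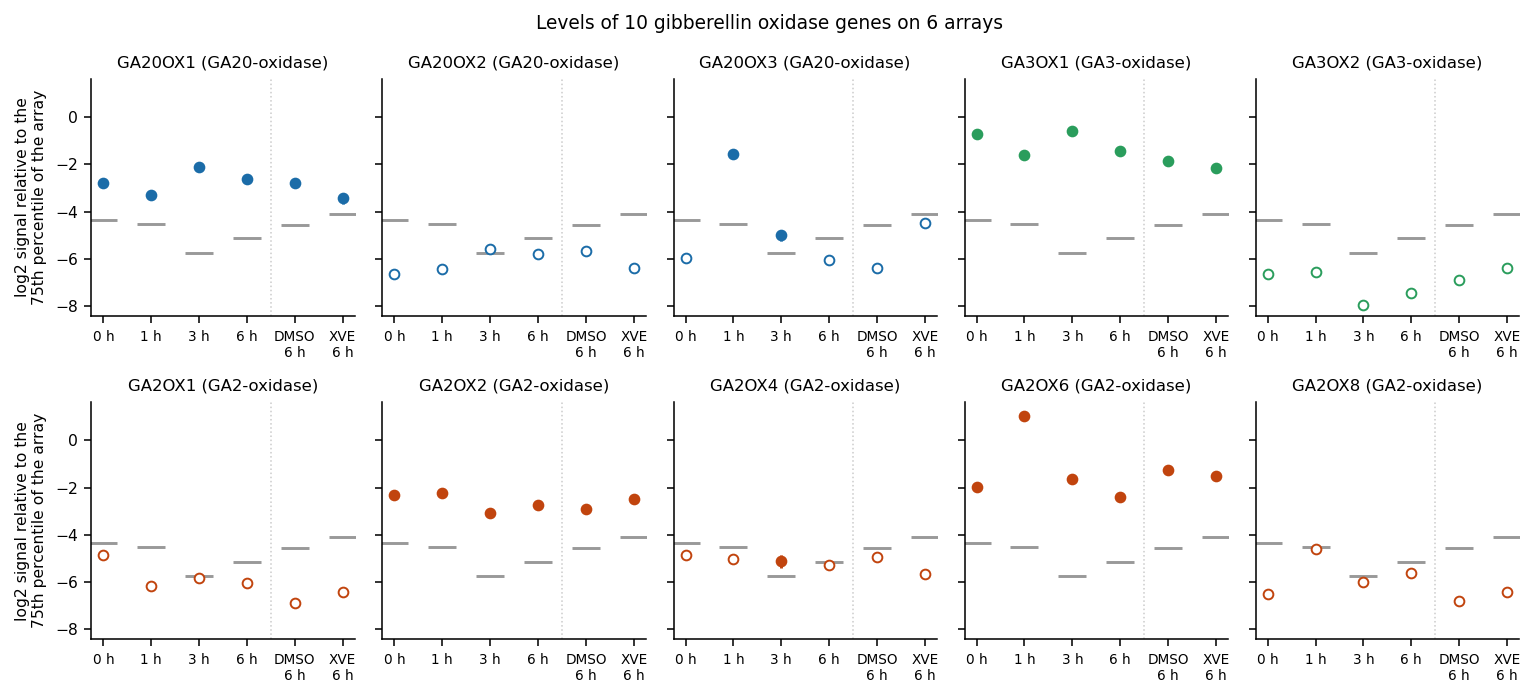
Level of each gibberellin oxidase gene on each of the 6 arrays, as log2 of the processed intensity over each array's own 75th percentile, with 1 array per group. Filled points were well above background and open points were not, grey bars mark the lowest level well above background on that array, error bars are the scanner software's own spot error, and the dotted line parts the 2 slides. GA2OX6 and GA20OX3 stand highest at 1 h, and GA3OX1 is lowest on the XVE array.

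No gene of the family has a replicate, so no test was made and no p-value can be given for any difference. The error beside a level or a difference is the scanner software's own error of the spot, which covers neither plants nor slides nor hybridisations. Genes at least 2-fold apart are counted, and the members' counts are given beside the share of all genes tested that passed the same threshold.

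Of the GA20-oxidases, GA20OX3 was the one that stood out, at 1 h. Its level there was -1.56, against -5.01 at 3 h, and it was not well above background at 0 h (-5.98), at 6 h (-6.04), with DMSO (-6.41) or with XVE alone (-4.47). Thus 1 of 6 arrays was high, the 3 h array was low but above background, and the others gave only an upper bound. GA20OX3, which acts partly redundantly with GA20OX1 and GA20OX2, was 10.9-fold higher at 1 h than at 3 h, a log2 difference of 3.45 ± 0.28 (scanner error).

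Against arrays where GA20OX3 was dim, the bright level was set against the higher of the dim level and the lowest level well above background on that array. By that bound GA20OX3 was at 1 h at least 6.89-fold higher than at 0 h, at least 11.9-fold higher than at 6 h, at least 8.03-fold higher than with DMSO and at least 5.77-fold higher than on the XVE array. Among 457 genes dim at 0 h and above background at 1 h, 194 (42.5%) had a bound of at least 2-fold, and 36 had a larger bound than GA20OX3. With the normexp background correction, which compresses faint signals, the bound over 0 h was 2.82-fold. The value rests on 1 probe, whose processed intensity was 163.5 units at 1 h and 8.77 units at its lowest.

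GA20OX1, the GA20-oxidase with the main part in stem elongation, varied 2.52-fold over the 6 arrays. Its levels were -2.79 (0 h), -3.28 (1 h), -2.10 (3 h), -2.63 (6 h), -2.80 (DMSO) and -3.43 (XVE). The 3 h array was highest and the XVE and 1 h arrays were lowest. The DMSO, 0 h and 6 h levels lay between them and within scanner error of each other. At 3 h GA20OX1 was 2.26-fold higher than at 1 h (1.18 ± 0.25), and against 0 h it differed by less than 2-fold on every array: -0.49 ± 0.26 at 1 h, 0.68 ± 0.23 at 3 h and 0.16 ± 0.23 at 6 h. The arrays where GA20OX1 was lowest were also the arrays of lowest 75th percentile, XVE at 341.6 and 1 h at 481.8 units, and the array where it was highest had the highest, 1435 units. The part of array brightness in the order was not tested. The difference of XVE from 0 h was -0.65 on the main scale, -0.55 with quantile scaling, -0.49 with cyclic loess and -0.13 with normexp.

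GA20OX2, which shares roles in growth and fertility with GA20OX1, was dim on every array. Its processed intensity ran from 4.03 to 29.5 units, where the lowest signal well above background on the 3 h array was 26.8 units and the flag is set spot by spot. These arrays place no order on GA20OX2.

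Of the GA3-oxidases, GA3OX1, the main enzyme of that step in shoots, was measured on all arrays and GA3OX2 on none. GA3OX1 stood at -0.71 (0 h), -1.61 (1 h), -0.58 (3 h), -1.45 (6 h), -1.88 (DMSO) and -2.16 (XVE). The 0 h and 3 h arrays were high and lay within scanner error of each other, and all 3 arrays taken at 6 h and the 1 h array were lower. Every array of the time course was above both arrays of the second slide, so for GA3OX1 slide and control cannot be told apart in comparisons across slides.

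Against 0 h, GA3OX1 was 2.25-fold lower with DMSO (-1.17 ± 0.15) and 2.72-fold lower on the XVE array (-1.45 ± 0.16). Within the slide of the time course the differences from 0 h were -0.90 ± 0.15 at 1 h, 0.13 ± 0.15 at 3 h and -0.74 ± 0.15 at 6 h, all under 2-fold. At 6 h the plants with AMY3C-EY and estradiol were not lower than either 6 h control: GA3OX1 was 0.43 ± 0.15 above DMSO and 0.71 ± 0.16 above XVE. GA3OX1 was lowest on the XVE array. Of the 6 arrays, that array had the highest summed leaf markers (7.91) and the lowest summed flower markers (-0.98). The flower sum rested on AP1 at -1.18, since AG (-4.38) and AP3 (-5.67) lay under the lowest level well above background there, -4.09. The summed root markers (6.36) were also highest there, through COBL9 at 6.32, while PYK10 was 1.09, against 1.60 at 0 h. The part of these markers in the differences of GA3OX1 was not tested. With normexp the DMSO difference was -0.90 and so under 2-fold.

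The 2 probes of GA3OX1, both to the same transcript, gave one direction in 7 of 8 comparisons. Against 0 h they read -0.75 and -1.05 at 1 h, -0.72 and -0.76 at 6 h, -1.22 and -1.12 with DMSO, and -1.72 and -1.17 on the XVE array. They parted in sign at 3 h, at 0.45 and -0.19. Taken alone, A_84_P784866 puts the 1 h difference past 2-fold. GA3OX2, which acts with GA3OX1 in germinating seeds and seedlings, had a processed intensity of 4.03 to 7.67 units and was dim throughout.

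**Figure D2:**
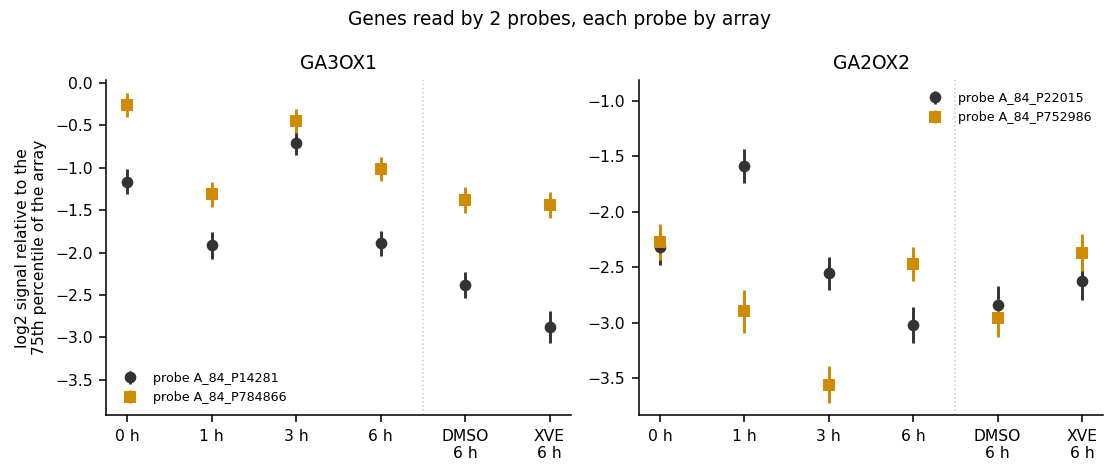
Level of each probe of GA3OX1 and GA2OX2 on the 6 arrays, as log2 over each array's own 75th percentile, with the scanner software's spot error as bars and a dotted line between the slides. The probes of GA3OX1 part in direction from 0 h to 3 h and agree in sign for the other arrays against 0 h, while those of GA2OX2 part at 1 h, at 0.73 and -0.62 relative to 0 h.

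Among the GA2-oxidases, GA2OX6, which inactivates gibberellins and is a known target of the MADS protein AGL15 in Arabidopsis embryos, varied most. Its levels were -1.99 (0 h), 1.01 (1 h), -1.64 (3 h), -2.38 (6 h), -1.24 (DMSO) and -1.51 (XVE). The 1 h array stood above the other 5, among which 6 h was lowest and DMSO highest, and XVE and 3 h did not differ beyond scanner error. GA2OX6 was 8.00-fold higher at 1 h than at 0 h (3.00 ± 0.21), and 6.28-fold higher than at 3 h (2.65 ± 0.21).

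The 1 h level of GA2OX6 was also 3.39 above 6 h on the log2 scale, 4.75-fold above DMSO and 5.74-fold above XVE, the last 2 across slides. Of the 18553 genes tested at 1 h against 0 h, 61 had a larger difference. Under quantile, cyclic loess and normexp scaling the difference from 0 h lay between 2.60 and 3.05. The filters and probe rules could not move it, since GA2OX6 has 1 probe and was above background on all 6 arrays. At 6 h GA2OX6 was at its lowest, 2.21-fold below DMSO (-1.15 ± 0.21), 0.87 below XVE and 0.39 below 0 h on the log2 scale; 321 of 19220 genes lay further below DMSO. With normexp the difference from DMSO was -0.83 and so under 2-fold. The DMSO and XVE arrays of the other slide were both above the 0 h, 3 h and 6 h arrays for this gene, though XVE was above 3 h by only 0.13 ± 0.21.

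GA2OX2, a GA2-oxidase expressed around the shoot meristem in Arabidopsis, varied least of the 4 measured genes, 1.76-fold. Its levels were -2.30 (0 h), -2.24 (1 h), -3.06 (3 h), -2.74 (6 h), -2.90 (DMSO) and -2.49 (XVE). The 3 h array was lowest, and the 0 h and 1 h arrays were highest and did not differ beyond scanner error. Those means hide a disagreement between its 2 probes, which were made to different transcripts of the gene. Relative to 0 h, A_84_P22015 read 0.73 at 1 h and -0.24 at 3 h, while A_84_P752986 read -0.62 and -1.28. Only the second probe passed 2-fold, at 3 h, and the arrays cannot say which probe stands for the gene.

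GA2OX4, which with GA2OX2 marks the base of the meristem in Arabidopsis, was well above background at 3 h only, at a level of -5.11. On the other 5 arrays it was dim, from -5.64 to -4.84, and the dim 0 h value lay above the 3 h one, so no fold can be given. The 3 h array had the highest share of spots well above background, 77.5%. GA2OX1, which inactivates the same class of gibberellins, ran from 4.03 to 25.5 units of processed intensity and was dim on all arrays. GA2OX8, which acts on earlier, longer precursors, ran from 4.03 to 22.6 units; its highest level, -4.58 at 1 h, was just under the lowest level well above background there, -4.52.

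**Figure D3:**
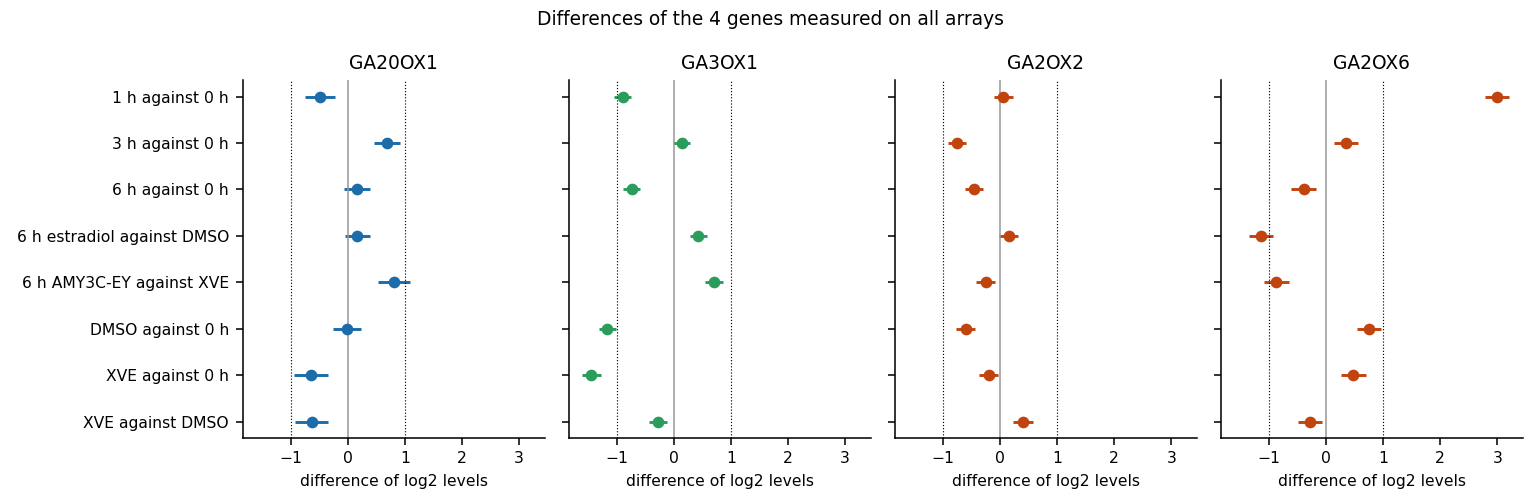
Difference of log2 levels in each of the 8 comparisons for the 4 oxidase genes well above background on all 6 arrays, with the scanner software's error of the difference as bars (1 array per group, no replicate error). Dotted lines mark 2-fold in either direction. GA2OX6 at 1 h, at 3.00, is the one difference far outside them, and GA3OX1 lies below them for DMSO and XVE against 0 h.

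Taking the comparisons in turn, in the time course 1 of the 4 measured oxidases was at least 2-fold apart from 0 h at 1 h, GA2OX6, beside 12.7% of 18553 genes (6.31% at least 2-fold higher). Their median difference was -0.22, with -0.08 for all genes. The oxidases of each role were mixed at 1 h: of the biosynthetic genes GA20OX1 and GA3OX1 lay below 0 h and GA20OX3 above, and of the GA2-oxidases GA2OX6 lay above and GA2OX2 at 0.05. At 3 h 0 of 4 passed, beside 7.37% of 19236 genes (medians 0.24 and -0.05), and at 6 h 0 of 4, beside 5.45% of 19182 genes (medians -0.42 and -0.06). So the differences of these 4 genes at 3 h and 6 h stayed under 2-fold.

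Of the controls at 6 h, the DMSO sample differs from the estradiol sample in the agent and the XVE sample in the construct, and both also in the slide. Against DMSO 1 of 4 oxidases was at least 2-fold apart, GA2OX6 on the lower side, beside 3.94% of 19220 genes apart and 2.42% lower (medians 0.16 and -0.03). Against XVE 0 of 4 passed, beside 8.92% of 18585 genes (medians 0.23 and 0.00). Against all 3 controls at once 0 of 4 passed, beside 0.313% of 18193 genes. Only GA20OX1 and GA2OX6 had one sign against each control. The smallest difference was -0.39 for GA2OX6 and 0.16 for GA20OX1, which is within scanner error; with normexp GA20OX1 was 0.03 above DMSO.

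The controls differed among themselves as well. GA3OX1 was the 1 oxidase of 4 at least 2-fold apart between DMSO and 0 h, beside 8.68% of 18769 genes apart and 4.07% lower, and between XVE and 0 h, beside 14.5% of 18265 genes apart and 7.25% lower; 503 and 467 genes lay further below. Between XVE and DMSO, on 1 slide, 0 of 4 passed, beside 4.07% of 18484 genes, with GA20OX1 at -0.64 ± 0.29, GA2OX2 at 0.40 ± 0.17 and both GA3OX1 and GA2OX6 at -0.28. Comparisons that use the same array, such as those against 0 h, are not independent of each other.

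**Figure D4:**
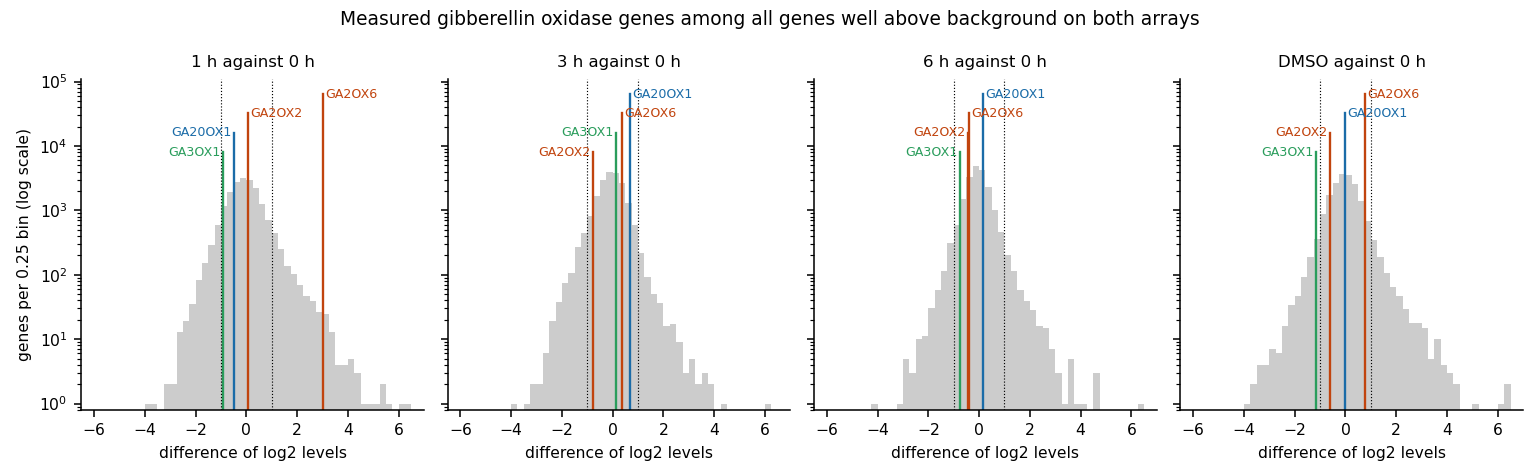
Difference of log2 levels of the 4 measured oxidase genes (coloured lines) among all genes well above background on both arrays (grey histogram, number of genes on a log scale, bins of 0.25), for 1 h, 3 h and 6 h after estradiol and for DMSO, each against 0 h. Dotted lines mark 2-fold; GA2OX6 at 1 h lies in the upper tail, with 61 genes of 18553 above it, and GA3OX1 with DMSO in the lower tail.

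The rest of the gibberellin pathway was taken as 6 lists holding 47 genes, and the same 2-fold count was used. Upstream of the oxidases, GA2 (ent-kaurene synthase), GA3 (ent-kaurene oxidase), KAO1 and KAO2 (ent-kaurenoic acid oxidases) were measured and GA1 was dim throughout. In each of the 8 comparisons 0 of these 4 passed 2-fold. GA2 lay farthest from 0 h at 1 h, at -2.80 against -1.91, still within 2-fold. Of 6 further oxidases, GA20OX5 and GA2OX7 were measured on all arrays and passed in 0 comparisons. The gibberellin methyltransferases GAMT1 and GAMT2 and the inactivating cytochromes ELA1 and ELA2 were above background on no array.

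Of the receptors, DELLA repressors and their regulators, 11 of 12 were measured against 0 h, and at 1 h 2 of them were at least 2-fold higher and 0 lower, beside 12.7% of all genes apart and 6.31% higher; the list median was 0.15, with -0.08 for all genes. These were RGL3, a DELLA gene, at -1.27 against -2.86, and GID1B, a gibberellin receptor gene, at -0.85 against -1.94. The other DELLA genes differed from 0 h at 1 h by -0.84 (RGL2), -0.66 (RGA), -0.52 (RGL1) and 0.03 (GAI). At 3 h and 6 h after estradiol 0 of 11 passed against 0 h, beside 7.37% and 5.45% of all genes. RGL2 stood at -1.08 at 0 h and was lower with DMSO (-2.36) and on the XVE array (-2.22), more than 2-fold in both. It was the 1 of 11 so lower in each, beside 4.07% and 7.25% of all genes. On the XVE array GAI was 0.43 against -0.62 at 0 h, and the receptor gene GID1A, dim at 0 h and 6 h, was at least 2.25-fold and at least 3.89-fold higher than there.

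The GASA genes encode small cysteine-rich peptides, several of them gibberellin-responsive. GASA6 was lower at 1 h and at 3 h than at 0 h, at -0.07 and 0.32 against 1.82, the 1 gene past 2-fold of 5 and of 6 measured in this list of 9, beside 12.7% and 7.37% of all genes; the list medians were 0.22 and -0.44, beside -0.08 and -0.05 for all genes. GASA4 ran the same way at 1 h within 2-fold, at 3.05 against 3.87. The other measured genes, GASA1 (1.24 against 0.54), AT1G22690 and GASA14, were higher at 1 h than at 0 h, also within 2-fold. At 6 h, of 6 measured, 1 GASA gene was higher than at 0 h, GASA14 at 0.86 against -0.88, and 2 were lower, AT1G22690 at -3.76 against -1.97 and GASA5 at -5.13 against -3.71, beside 5.45% of all genes apart. GASA14 was also higher with DMSO (0.97) and on the XVE array (0.69), whereas AT1G22690 at 6 h was below DMSO (-2.14) and XVE (-1.18) too. Against DMSO AT1G22690 was the 1 of 6 measured at least 2-fold lower, beside 2.42% of all genes. Against XVE 2 of 5 were so lower, AT1G22690 and GASA6 (1.28 against 2.53), beside 970 of 18585 genes.

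All 11 regulators of oxidase genes were measured. Their medians at 1 h and 6 h against 0 h were -0.18 and -0.14, with -0.08 and -0.06 for all genes, and 1 of 11 at 1 h and 2 of 11 at 6 h passed 2-fold, beside 12.7% and 5.45% of all genes. At 1 h this was TEM1, a repressor of GA3-oxidase genes, at 2.16 against 1.11. At 6 h AGF1, an AT-hook protein that binds the GA3OX1 promoter, was higher than at 0 h at -0.57 against -2.20. AGF1 was also above its 0 h level with DMSO (-1.36) and on the XVE array (-1.55), within 2-fold. RAV2, the close relative of TEM1, was lower at 6 h than at 0 h, at -1.02 against 0.39. RAV2 and TEM1 were at 6 h also more than 2-fold below DMSO, where they stood at 0.56 and 1.51, and below XVE. They were the 2 of 11 regulators at least 2-fold lower in each. Of all genes, 466 of 19220 (2.42%) were so against DMSO and 970 of 18585 against XVE. KNAT6, a KNOX gene, was lower with DMSO (-2.56) and XVE (-2.64) than at 0 h (-1.17). It was the 1 regulator of 11 past 2-fold in each, beside 4.07% and 7.25% of all genes at least 2-fold lower. On both arrays STM and KNAT2 were also lower than at 0 h and KNAT1 was higher, all within 2-fold. The KNOX gene STM stood between -3.65 and -2.78 and KNAT1 between -1.18 and -0.50, and neither passed 2-fold in any of the 8 comparisons.

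**Figure D5:**
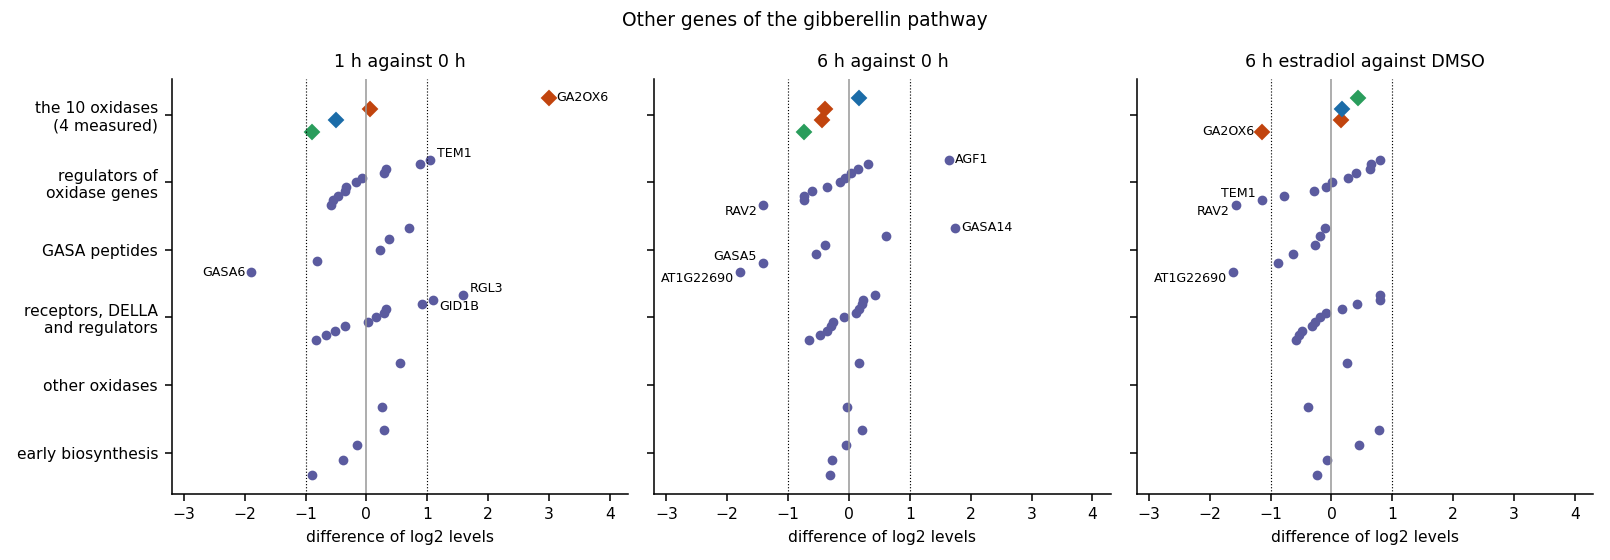
Difference of log2 levels for the measured genes of the pathway lists (circles) and the 4 measured oxidases (diamonds) at 1 h against 0 h, at 6 h against 0 h and at 6 h estradiol against DMSO, 1 array per group. Genes past the dotted 2-fold lines are named, GA2OX6, RGL3, GID1B, TEM1 and GASA6 at 1 h among them.

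For the 3 oxidases above background on all arrays whose levels span at least 1 on the log2 scale, the genes of most similar pattern were sought among 17996, as the smallest root mean square difference of centred levels over the 6 arrays. The nearest to GA2OX6 were PYL5, an abscisic acid receptor gene, at 0.229, the sucrose transporter gene SUC1 at 0.245 and BCAT-2 at 0.308. The nearest to GA3OX1 were TMM, a receptor-like protein gene of the stomatal lineage, at 0.148, CYP96A8 at 0.172 and CYP96A12 at 0.181. The nearest to GA20OX1 were AT4G38150 at 0.0876, AT5G19300 at 0.102 and AT3G18600 at 0.114. Over 6 arrays such likeness is a description, and the points share slide and array brightness.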

How the data were processed

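RNA of 6 samples was read on 1-colour Agilent arrays. Per the submitters' processing notes Feature Extraction 10.5.1.1 was used. The processed intensity of a spot was taken from the authors' deposited scanner output; per the file headers the software had subtracted background and detrended it spatially, with no scaling between arrays. Flags of 0 or 1 in the same output mark spots as well above background, as saturated or as outliers. The authors' deposited table holds log2 values without a stated scale; its 43464 probes used here lay within 0.01 of 1 offset per array from the main scale, so scale, centring and direction are known, with column medians of -2.079, -2.116, -2.143 and -2.108 (0, 1, 3 and 6 h), -2.136 (DMSO) and -2.079 (XVE).

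The main scale is log2 processed intensity minus the 75th percentile over 43803 non-control spots; 0 were saturated. Of 43603 probes, 34285 matched 1 locus, 9318 none and 0 several in a RefSeq gene table of TAIR10.1, used for names only, and 139 were left out for outlier spots. A gene's level is the mean over its probes, leaving out probes that were dim on all 6 arrays, and a gene counts as above background where 1 of them is. Groups follow the source names. With 1 array per group a model has no residual degrees of freedom, so 2-fold counts replace tests; the precision is limited by the number of arrays. The members, lists and rules were chosen with earlier results of these data known. All 10 members are named, up to 4 genes per list and comparison by largest difference, and 3 genes of like pattern per member. Alternatives were quantile and cyclic loess scaling, normexp with an offset of 50 (on median signals, since the planned mean signals are not used here), the authors' table, dim probes kept, genes above background on all 6 arrays, the brightest probe, leaving out each control and, added after seeing the data, the dimmer probe of genes with 2. The counting was tested only on data simulated from the 0 h levels with planted changes and scanner error. That simulation held no variation between plants, slides or hybridisations. R 4.3.3 with limma 3.58.1 and Python 3.11.15 with pandas 2.3.3 were used. Neither probe nor gene sequences were used here.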

Additional observations from a re-analysis of the deposited data

How the results depend on the processing

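Under quantile, cyclic loess and normexp, the 3 alternatives that can move every value, 25 of 27 counts of oxidase genes at least 2-fold apart were kept. With normexp the counts for 6 h against DMSO and for DMSO against 0 h went to 0, while the share of all genes apart fell from 3.94% to 1.71% and from 8.68% to 4.12%, and at 1 h from 12.7% to 6.47%. Without the filter on dim probes, 10 genes were counted and dim values entered. Beside each such count is the share of all 25323 genes at least 2-fold apart. Against 0 h the counts were 4 at 1 h (15.0%), 2 at 3 h (19.0%) and 1 at 6 h (8.87%). They were 2 for estradiol against DMSO (7.01%) and 2 for AMY3C-EY against XVE (21.7%). Between controls they were 2 for DMSO against 0 h (12.4%), 3 for XVE against 0 h (17.3%) and 1 for XVE against DMSO (6.75%). With the brightest probe of each gene the 1 h count was 2 of 4, beside 13.4% of all genes. The count of 0 for 6 h against all 3 controls held without each control. Of 96 single differences under the same 3 alternatives, 93 kept their sign and 94 their side of 2-fold. The sign turned for GA20OX1 in DMSO against 0 h (0.09 with quantile, 0.14 with loess, 0.05 with normexp), GA3OX1 at 3 h (-0.19) and GA2OX2 in 6 h against DMSO (-0.18) with the brightest probe, and GA2OX2 at 1 h (-0.62) with the dimmer probe. The causes were not tested. No paired analysis was possible because each group has 1 array. Background limits GA20OX2, GA3OX2, GA2OX1 and GA2OX8, for which a difference was not detectable on these arrays.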
